A study of Rattus norvegicus with 34 samples.

Results

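Chromosome 12 is the rat autosome whose windows carried the highest mean methylated DNA immunoprecipitation (MeDIP) signal in control sperm. The windows described here are all 52717 windows of 1 kb that the deposited tables place on chromosome 12 of the Rnor_6.0 build, from base 1 to base 52717000, out of 2782040 windows in all (1.895%). The chromosome was selected on its mean level in the F1 control pools, so that level is described without a test, and tests are kept for differences between groups of pools.

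The animals were outbred Hsd: Sprague Dawley SD (Harlan) rats. Founder males (F0) were injected intraperitoneally on days 26, 29 and 32 of age, during puberty, with ifosfamide, an alkylating chemotherapy drug, at 8.5 mg/kg, or with phosphate buffered saline at 1.1 mL/kg; the F1 and F2 animals were their descendants and received neither. Sperm from the cauda epididymis was analysed in 3 groups of 6 pools: F1 control and F1 ifosfamide lineage, with 3 to 4 males in a pool, and F2 ifosfamide lineage, with 8 or 9 males in a pool. The F1 parents of the F2 animals were non-littermates of 80 to 90 days, mated within their lineage. The labels count 3 control and 5 ifosfamide F0 males, 25 control and 18 ifosfamide F1 males and 43 F2 ifosfamide males. The stated size of the 6 F2 pools comes to more than the 43 males, and whether pools shared males is not given. The pools of a lineage share a few founders, so p-values measure only the spread between pools. F0 and F2 control libraries were not analysed here. F2 ifosfamide was set against F1 control and against F1 ifosfamide. In both comparisons generation and pool size change together and cannot be told apart. Against F1 control the lineage changes with them, so it cannot be told apart from them either.

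MeDIP enriches single-stranded DNA fragments with an antibody against 5-methylcytosine, which in mammals sits almost entirely at CpG sites. The count of a window rises with the number of methylated CpG sites in it and also depends on how reads map there. Mammalian sperm DNA is methylated over most of the genome, with CpG islands and many promoters as the main exceptions. CpG density and methylation level therefore cannot be told apart from a count alone. Signal is given as CPM, the counts of a 1 kb window for each 1000000 counts of the library, with the library total scaled by its TMM normalization factor. Library totals ran from 23336048 to 39440265 counts, and the median window held 5 to 8 counts, so a typical window is shallow in any pool and sums over many windows are far more precise. An annotation of the Rnor_6.0 build was not used here, so windows are named by position and no gene is assigned to them.

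In F1 control sperm the mean chromosome 12 window held 0.486 CPM ± 0.0102 (SD, n = 6 pools), against 0.368 ± 0.00297 over the windows of the other autosomes, a ratio of 1.318. The 6 pools lay between 0.475 and 0.497 CPM, a range given as a description, since the chromosome was picked on these pools. The autosomes closest in level were chromosome 19, at 0.448 ± 0.00490, and chromosome 20, at 0.440 ± 0.00733, and chromosome 2 was the lowest of the 20, at 0.331 ± 0.00266. The excess was not carried by a few extreme windows: the median window held 0.333 CPM on chromosome 12 and 0.224 CPM on the other autosomes. Leaving out the highest 0.1% of autosomal windows gave a ratio of 1.304, and leaving out windows with no count in any control pool gave 1.333.

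**Figure D1:**
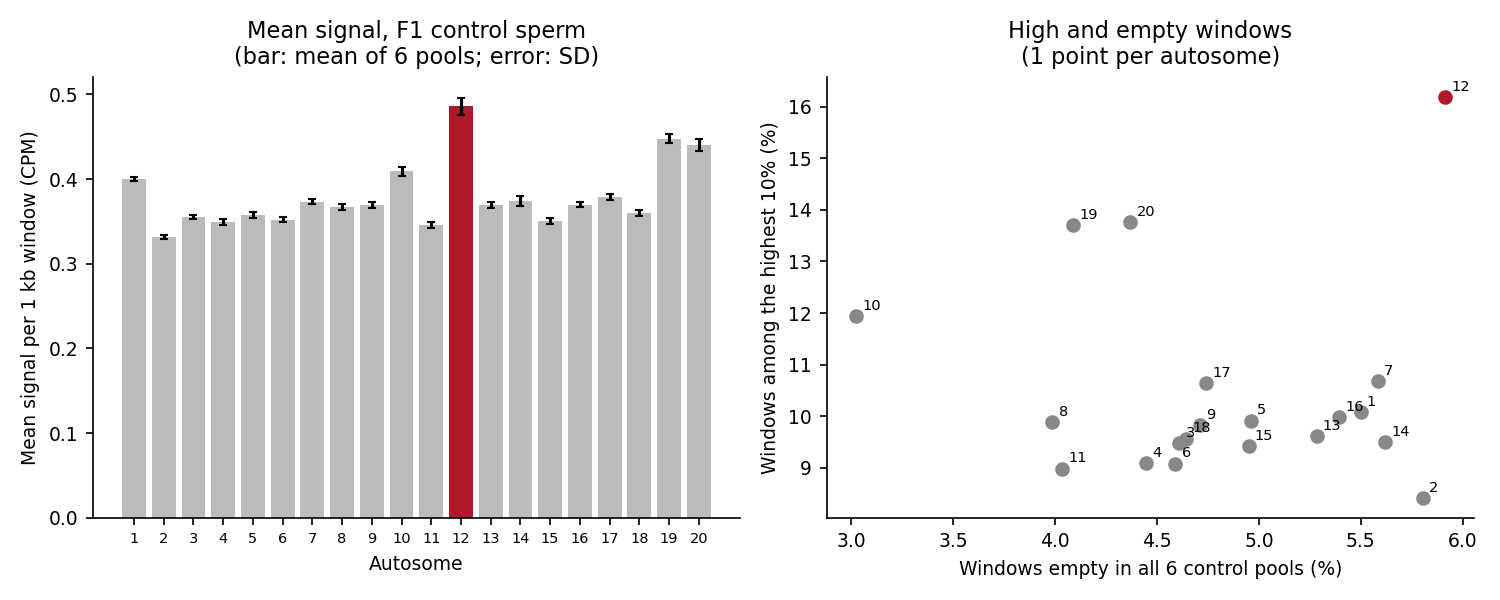
Left, mean MeDIP signal per 1 kb window of each autosome in F1 control sperm, in CPM, as bars for the mean of 6 pools with the SD as error; right, the percentage of windows among the highest 10% of autosomal windows against the percentage with no count in all 6 control pools, 1 point per autosome. Chromosome 12 has the tallest bar (0.486 CPM) and sits at the upper right, with 16.2% high and 5.91% empty windows.

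High windows and empty windows were both frequent on chromosome 12. A window was called high when its control mean was among the highest 10% of autosomal windows, which required 0.831 CPM. By this measure 8534 windows (16.2%) were high, against 9.87% on the other autosomes, the largest share of any autosome in these control pools; chromosome 20 followed at 13.8% and chromosome 19 at 13.7%. Among the highest 1% of windows the order changed: chromosome 12 held 1.27% of its windows there and chromosome 19 held 1.52%. Windows with no count in any of the 6 control pools made up 5.91% of chromosome 12 (3117 windows), against 4.89% elsewhere, also the largest share of the 20 autosomes, with chromosome 2 next at 5.81%. Within a single control pool, however, chromosome 12 had fewer empty windows than the other autosomes, 9.78% ± 0.807 against 10.7% ± 1.27 (SD, n = 6). The empties of chromosome 12 were thus to a larger part the same windows in every pool.

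The distribution showed this as a shortage of weak windows. Autosomal windows were divided into 20 strata of increasing signal, by the mean of the 3 groups' mean CPM, so that each stratum held about 5% of the other autosomes. Chromosome 12 had 6.07% of its windows in the lowest stratum, which is largely empty, then only 2.86% in stratum 3. Its share rose from there and passed that of the other autosomes at stratum 14 (5.45% against 4.99%). It peaked at 8.27% in stratum 19 and was 7.99% in stratum 20.

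**Figure D2:**
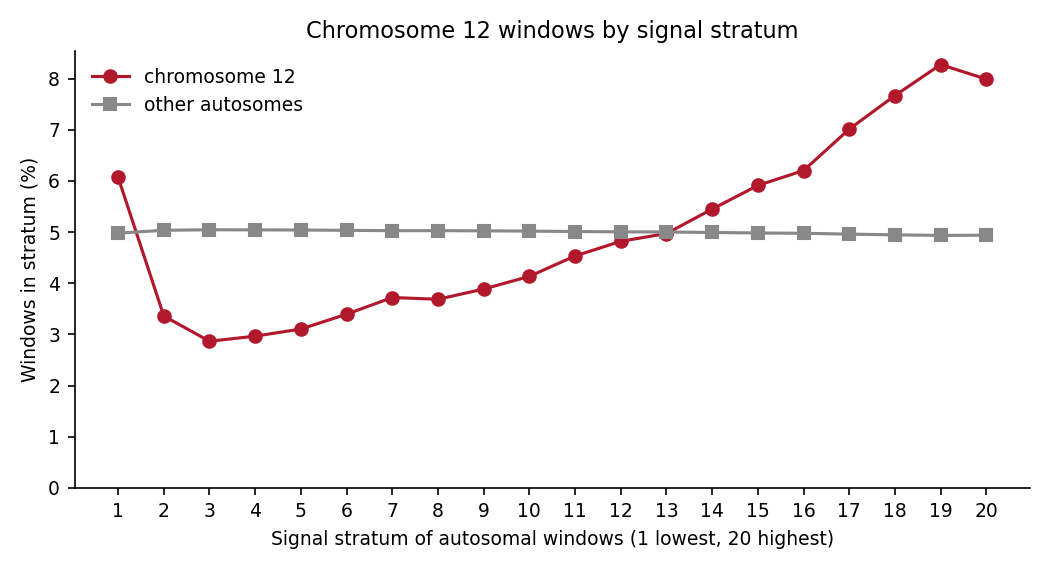
Percentage of the windows of chromosome 12 (red) and of the other autosomes (grey) in each of 20 strata of increasing MeDIP signal. The grey line stays close to 5%, while the red line falls from 6.07% in stratum 1 to 2.86% in stratum 3 and climbs to 8.27% in stratum 19.

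The empty windows were clustered. Of the 3117 windows, 42.2% lay in runs of 10 or more neighbouring empty windows, against 32.0% on the other autosomes, and 9.50% stood alone, against 9.64%. The longest runs were chr12:1518001-1668000, 150 kb, and chr12:8541001-8690000, 149 kb. The next ones lay close together at chr12:34114001-34168000 (54 kb), chr12:34063001-34111000 (48 kb) and chr12:33541001-33586000 (45 kb). Whether reads can map uniquely in these stretches was not tested.

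High windows lay in shorter runs. The 8534 high windows formed 5328 runs with a median length of 1 window. Of these windows 38.9% stood alone, against 41.8% on the other autosomes, so most adjoined another high window, and 0.574% of them lay in runs of 10 or more, against 0.876% on the other autosomes. They held 47.6% of the control counts of the chromosome. The longest run, chr12:3349001-3374000, spanned 25 kb at 17.6 CPM ± 1.19 (SD, n = 6), and the following ones lay at the start of the chromosome, chr12:35001-49000 (14 kb, 2.78 CPM ± 0.199) and chr12:94001-104000 (10 kb, 2.51 CPM ± 0.0883). Neighbouring windows resembled each other about as on other autosomes. Spearman's rho between control means of windows 1 kb apart was 0.547 on chromosome 12, within the 0.485 to 0.562 of the other autosomes. At 10 kb it was 0.224, above their range of 0.159 to 0.219, and at 100 kb it was 0.108, within 0.093 to 0.152. These are correlations across windows of the same libraries and are given as a description.

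A few windows were far above all others. The highest 0.1% of autosomal windows included 77 on chromosome 12, which is 0.146% of the chromosome against 0.0991% elsewhere, and these 77 windows took 4.71% of the control counts of chromosome 12. The single highest, chr12:1509001-1510000, held 124, 144 and 161 CPM in the lowest, median and highest control pool, with a mean of 142 ± 13.4. Its neighbour chr12:1510001-1511000 held 62.4 ± 6.88 CPM, and both belong to a block of 5 kb, chr12:1508001-1513000, that took 1.19% of the control counts of the chromosome and ends 5 kb before the longest empty run begins. The block chr12:3350001-3359000, 9 kb at 44.1 CPM ± 3.41, took 1.55% of them. It includes chr12:3351001-3352000, at 89.6 ± 7.85 CPM, and chr12:3350001-3351000, at 57.3 ± 7.87 CPM. The fifth highest, chr12:466001-467000, at 52 ± 9.12 CPM, stood alone: over the 18 pools it held 26986 counts, and the windows on either side held 1 and 696. How uniquely reads map in these windows was not tested. None of the 5 differed between groups by edgeR's quasi-likelihood test, with adjusted p-values from 0.0931 to 0.996 over the 3 comparisons.

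Along the chromosome, signal was uneven at the scale of 1 Mb bins. The 53 bins, numbered from the start of the chromosome, had control means from 0.192 to 0.835 CPM with a median of 0.496. Of these, 47 lay above 0.351 CPM, the median bin of the other autosomes, and 19 (35.8%) lay above 0.516 CPM, their 90th percentile. The highest were bin 2 (chr12:1000001-2000000) at 0.835 ± 0.0406 CPM, bin 4 (chr12:3000001-4000000) at 0.805 ± 0.0350, bin 47 (chr12:46000001-47000000) at 0.700 ± 0.0274, bin 1 (chr12:1-1000000) at 0.676 ± 0.0227 and bin 32 (chr12:31000001-32000000) at 0.626 ± 0.0129. They were high in different ways. Bin 4 owed its mean to 17 windows of the highest 0.1%: its median window held 0.145 CPM, 11% of its windows were high and 24.1% were empty. In bin 47 the median window held 0.576 CPM, 31.4% of windows were high and 1.60% were empty.

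The lowest bins were bin 21 (chr12:20000001-21000000) at 0.192 ± 0.0184 CPM, bin 22 (chr12:21000001-22000000) at 0.207 ± 0.0120, bin 19 (chr12:18000001-19000000) at 0.233 ± 0.00255, bin 5 (chr12:4000001-5000000) at 0.271 ± 0.00456 and the last bin, of 717 windows, at 0.318 ± 0.00549. In bins 19, 21 and 22, 13.9% to 18.4% of windows were empty and 4.70% to 5.10% were high. Bin 20, between them, was not low: it held 0.379 CPM, with 4.1% of windows empty and 10.9% high. Another group of bins rich in empty windows, 34 to 36, had means of 0.356 to 0.367 CPM with 8.5% to 21% of windows empty. From bin 37 to bin 52 the signal was high throughout: the 16 bins had means of 0.475 to 0.700 CPM and 15.6% to 31.4% of high windows. These stretches were picked out after their values were seen.

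**Figure D3:**
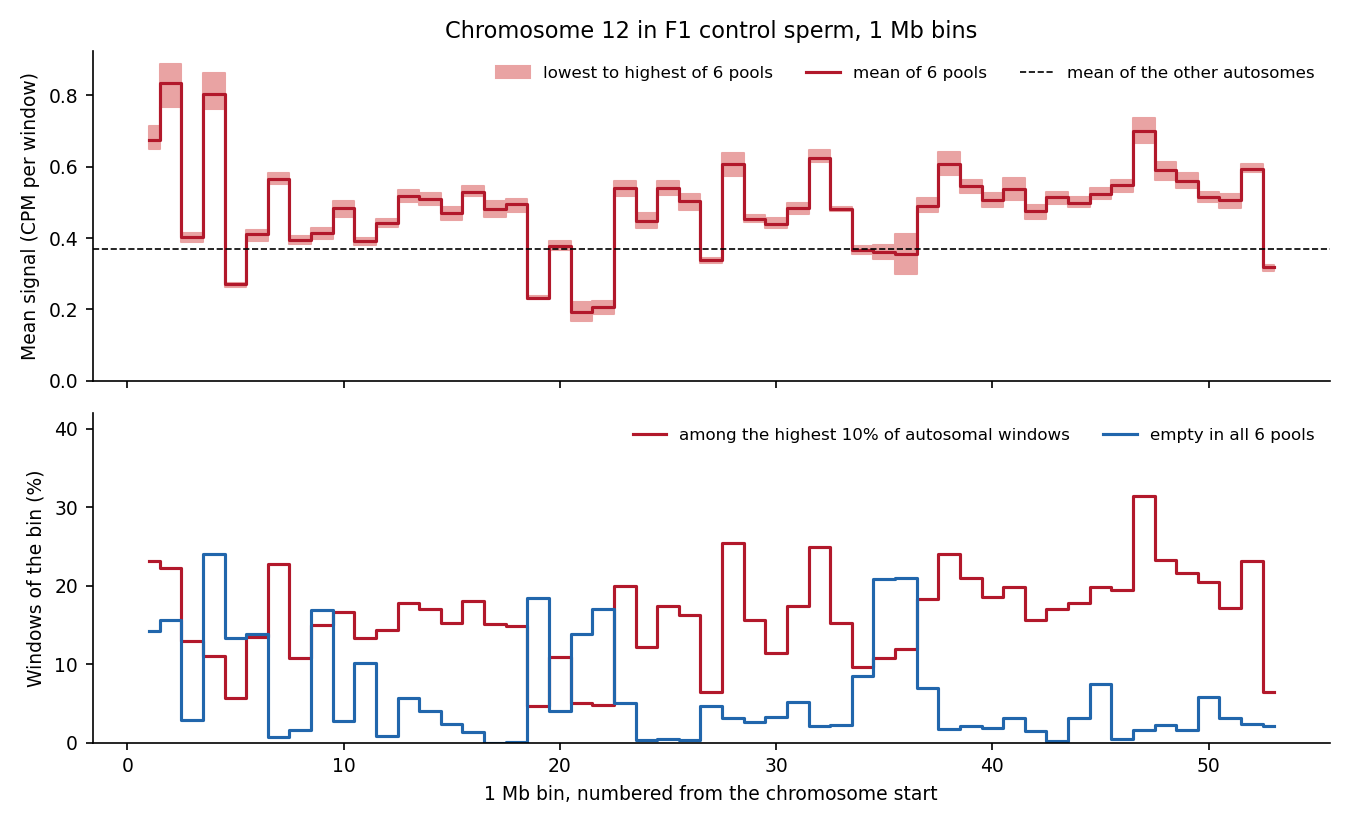
Chromosome 12 in 1 Mb bins in F1 control sperm: above, mean signal per 1 kb window in CPM (line, mean of 6 pools; band, lowest to highest pool; dashed line, mean of the other autosomes); below, percentage of high windows (red) and of windows empty in all 6 pools (blue). Signal peaks in bins 2 and 4 at 0.835 and 0.805 CPM, drops to 0.192 CPM in bin 21 and stays above the dashed line from bin 37 to bin 52.

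A feature of the sequence could be set beside this at the level of whole chromosomes only. In RefSeq promoters of the GRCr8 build, a later assembly than the one used for the windows, the dinucleotide CG was counted in the 300 bases around each gene start. The 1065 promoters of chromosome 12 held a mean of 13.61 CG, the highest of the 20 autosomes by a small margin, against 12.0 over the other autosomes. Chromosome 10 followed at 13.56 and chromosome 5 at 13.53, and these ranked 4 and 14 of the 20 autosomes in mean control MeDIP signal. Of the chromosomes next to chromosome 12 in MeDIP signal, 20 had 13.1 and 19 had 11.45 CG per promoter, and chromosome 2 had 11. The share of promoters with at least 15 CG was 37.2% on chromosome 12, the third highest of the autosomes. Promoters cover a small part of a chromosome, and no window was matched to one. Many promoters are unmethylated in sperm, so CG counted there need not add to MeDIP signal. A relation between the 2 was not tested.

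The level of the whole chromosome did not shift detectably between groups. On the log2 scale, the mean chromosome 12 window over the mean window of the other autosomes was 0.398 ± 0.0293 in F1 control, 0.399 ± 0.0426 in F1 ifosfamide and 0.395 ± 0.0158 in F2 ifosfamide sperm (SD, n = 6 pools each). The lowest, median and highest pool were 0.366, 0.397 and 0.442 in F1 control, 0.366, 0.387 and 0.484 in F1 ifosfamide and 0.375, 0.394 and 0.417 in F2 ifosfamide. The 3 groups overlapped throughout. The difference was 0.00065 for F1 ifosfamide minus F1 control (exact two-sided permutation test over 924 splits of the pools, p = 0.987; 95% interval -0.0422 to 0.0470). It was -0.0030 for F2 ifosfamide minus F1 control (exact permutation p = 0.831; interval -0.0338 to 0.0273) and -0.0037 for F2 minus F1 ifosfamide (exact permutation p = 0.933; interval -0.0462 to 0.0284). These belong to a family of 12 tests, of 4 measures in 3 comparisons, and all 3 had an adjusted p of 1.

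At matched signal level the differences were as small. For each pool the count observed on chromosome 12 was divided by the count expected had each of its windows behaved as the other autosomes' windows of its stratum. On the log2 scale this ratio was -0.0080 ± 0.0315 in F1 control, -0.0087 ± 0.0438 in F1 ifosfamide and -0.014 ± 0.0151 in F2 ifosfamide sperm, so chromosome 12 windows held close to what other autosomal windows of their stratum held, as matching on signal implies. F1 ifosfamide minus F1 control came to -0.00078 (exact permutation p = 0.978; 95% interval -0.0470 to 0.0469). F2 ifosfamide came to -0.0060 against F1 control (exact permutation p = 0.688; interval -0.0385 to 0.0272) and to -0.0052 against F1 ifosfamide (exact permutation p = 0.926; interval -0.0488 to 0.0262). All 3 adjusted p-values were 1. The intervals leave room for shifts of up to about 0.05 on the log2 scale in either direction. The ratio sums counts over the strata, so shifts of opposite direction in different strata can offset each other in it. Set against chromosomes 19 and 20 alone, F2 minus F1 ifosfamide was 0.020 at matched level, the other direction (exact permutation p = 0.0671, adjusted p = 0.268).

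The shares of high and empty windows were compared in the same way. In each pool the high windows were those at or above the smallest count that at most 10% of autosomal windows reached. Chromosome 12 had 14.4% to 17.2% of its windows there over the 18 pools, which was 1.63 ± 0.0770 times the share of the other autosomes in F1 control, 1.64 ± 0.0996 times in F1 ifosfamide and 1.60 ± 0.0272 times in F2 ifosfamide (exact permutation p from 0.494 to 0.803, adjusted p = 1 in all 3 comparisons). The share of empty windows relative to the other autosomes was 0.914 ± 0.0349 in F1 control, 0.960 ± 0.0236 in F1 ifosfamide and 0.914 ± 0.0284 in F2 ifosfamide. Before adjustment F1 ifosfamide differed from F1 control by 0.046 (exact permutation p = 0.0346) and F2 from F1 ifosfamide by -0.046 (exact permutation p = 0.0152), and neither passed after it (adjusted p = 0.208 and 0.182). Library totals ran from 23336048 to 34051679 counts in F1 control and from 25531658 to 39440265 in F1 ifosfamide. They ran from 27424144 to 36309987 in F2 ifosfamide libraries. After all libraries were thinned to the size of the shallowest, the differences were 0.014 (exact permutation p = 0.145) and -0.026 (exact permutation p = 0.0152, adjusted p = 0.182).

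F1 ifosfamide pool 5 stood apart on chromosome 12. Its mean signal was 0.484 above the other autosomes on the log2 scale, where the other 5 pools of the group lay between 0.366 and 0.389, and at matched level it was 0.079 where they lay between -0.040 and -0.020. Its share of high windows was 17.2%. Other chromosomes moved in the same pool: it was also the highest F1 ifosfamide pool for chromosome 19 (0.330), chromosome 20 (0.328) and chromosome 10 (0.192), and the lowest for chromosome 2 (-0.227). Without it the mean signal of F1 ifosfamide minus F1 control was -0.016 and that of F2 minus F1 ifosfamide was 0.013, against 0.00065 and -0.0037 with it. At matched level the same differences were -0.018 and 0.012 without it. F1 control pools had no pool set apart in this way, with pools 1 to 3 at 0.409 to 0.442 and pools 4 to 6 at 0.366 to 0.385. Their range was smaller than that of all F1 ifosfamide pools and wider than that of the other 5.

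**Figure D4:**
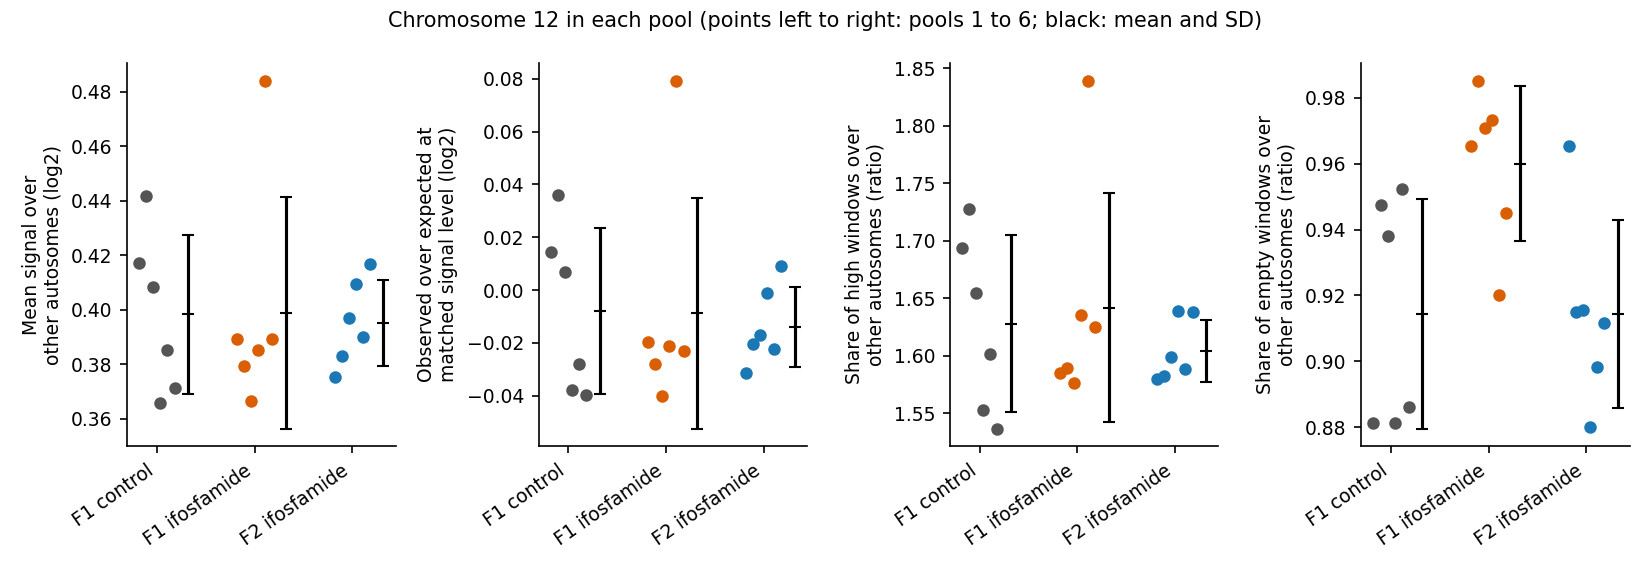
The 4 measures of chromosome 12 in each of the 18 pools, 1 point per pool in order from pool 1 to 6, with mean and SD in black: mean signal over the other autosomes (log2), observed over expected signal at matched level (log2), and the shares of high and of empty windows over those of the other autosomes (ratios). The groups overlap in every panel, and F1 ifosfamide pool 5 is the top point of the first 3 panels, at 0.484, 0.079 and 1.84.

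Tested singly, few 1 Mb bins of chromosome 12 differed. Between F1 ifosfamide and F1 control, 0 of 53 bins passed edgeR's quasi-likelihood test at an adjusted p below 0.05 (0.0% of the 2794 bins of all chromosomes), with 1 at an unadjusted p below 0.05 (199 of the 2794) and 0 by DESeq2. Log2 fold changes ran from -0.061 to 0.081, the latter in bin 2, whose signal was 0.835 ± 0.0406 CPM in F1 control and 0.881 ± 0.0286 in F1 ifosfamide. Between F2 ifosfamide and F1 control, 0 of 53 passed (0.107% of all bins), with 7 at an unadjusted p below 0.05 (335 of the 2794, a similar share) and 0 by DESeq2, and fold changes ran from -0.071 to 0.11. The largest was in bin 36, where the control pools themselves ranged from 0.298 to 0.411 CPM.

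Between F2 and F1 ifosfamide, 2 of 53 bins passed, against 8.59% of all bins. At an unadjusted p below 0.05 by edgeR's quasi-likelihood test there were 8 of the 53, against 794 of the 2794. Bin 22, among the 5 lowest in control, held 0.193, 0.205 and 0.213 CPM in the lowest, median and highest F1 ifosfamide pool and 0.210, 0.217 and 0.222 in the F2 pools (log2 fold change 0.082, SE 0.0244, edgeR adjusted p = 0.0499). The F1 control pools, at 0.186 to 0.223, covered both. Bin 28 (chr12:27000001-28000000) held 0.618, 0.628 and 0.641 CPM in F1 ifosfamide and 0.592, 0.608 and 0.610 in F2 ifosfamide pools, with no overlap (log2 fold change -0.058, SE 0.0167, edgeR adjusted p = 0.0424). Here too the F1 control pools, from 0.575 to 0.638 CPM, ranged more widely than the difference. Neither bin was called with the pool number as a replicate block, with all 3 groups in 1 fit or without the highest 0.1% of windows. Leaving out 1 pool changed the count to 3 without F1 ifosfamide pool 1, to 1 without F1 ifosfamide pool 2 or F2 pool 1, to 7 without F1 ifosfamide pool 5, and to 0 without F1 ifosfamide pool 3, 4 or 6 or F2 pool 2, 3, 4, 5 or 6.

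**Figure D5:**
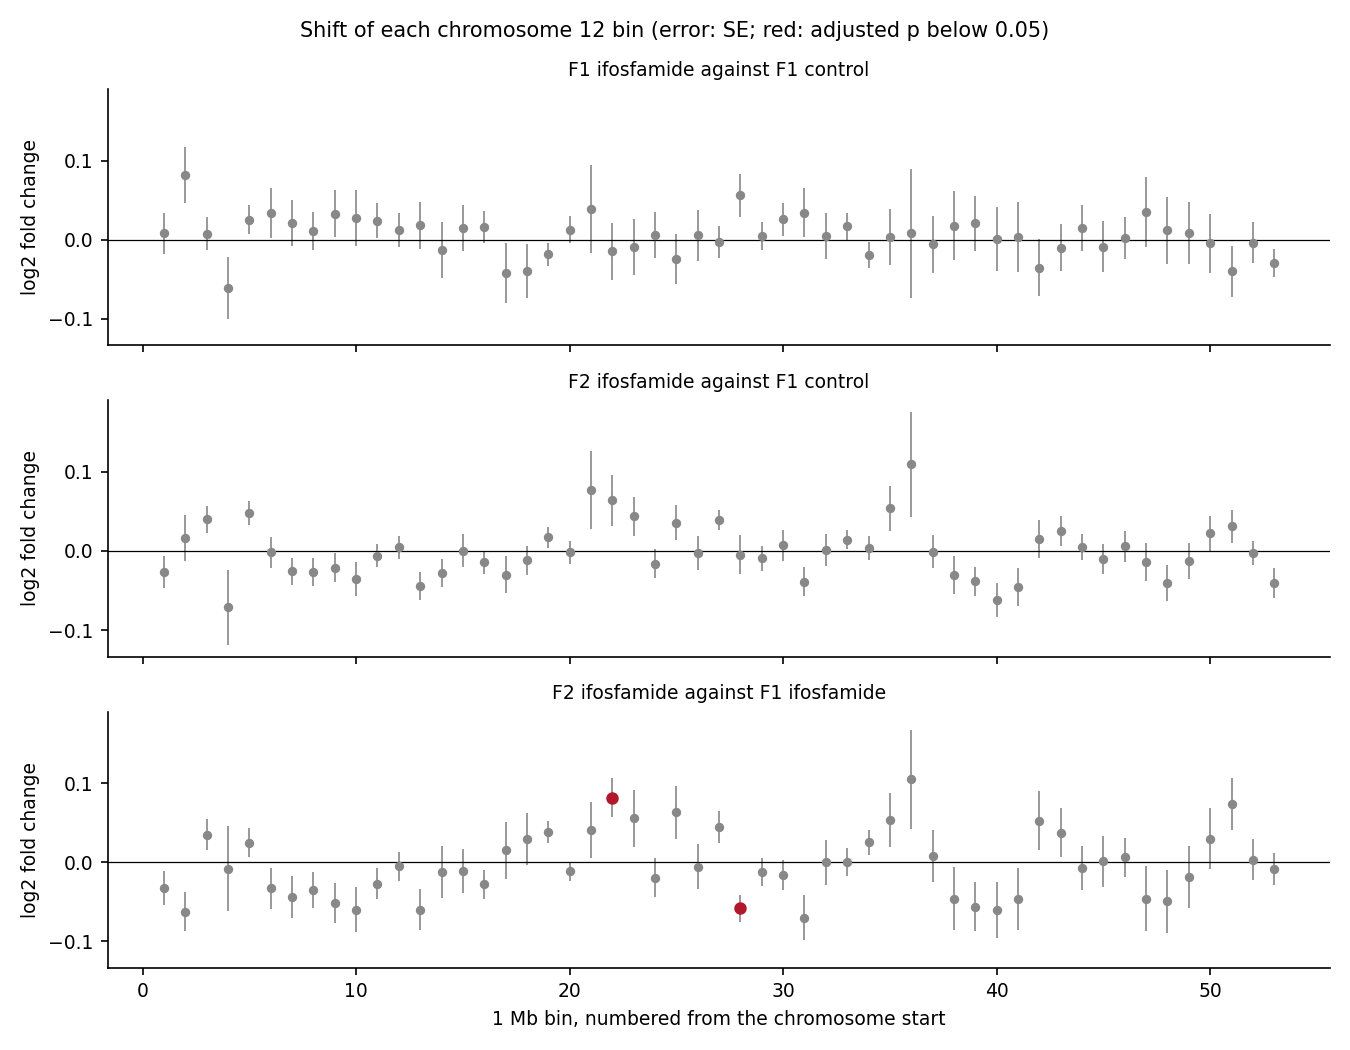
Log2 fold change of each of the 53 bins of chromosome 12 in the 3 comparisons, with the SE as error and bins that passed the test in red. Values stay within -0.071 and 0.11, with 2 red points, bins 22 and 28, in F2 against F1 ifosfamide.

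Single windows gave a small number of differences between F1 ifosfamide and F1 control sperm. Of 52717 windows, 27791 had enough counts to be tested (52.7%, against 38.8% on the other autosomes), and 11 passed edgeR's quasi-likelihood test at an adjusted p below 0.05, which is 0.0396% against 0.0584% of all windows tested. By direction, 2 were higher in F1 ifosfamide (0.00489% of all windows) and 9 lower (0.0535%). Had chromosome 12 windows been called at the rate of the other autosomes in the same stratum, 18.3 calls would have been made. The median log2 fold change of the tested windows was 0.0027 on chromosome 12 and 0.0024 on the other autosomes. The 11 windows lay in 11 different bins, 7 of them were high windows and none had a called neighbour. The share of high windows among all windows tested was not counted, so the 7 are a description only. In 3 of the 11 the pools of the groups did not overlap, as in 0.325% of all windows tested.

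The clearest was chr12:49407001-49408000. It held 4.93, 5.74 and 9.60 CPM in the lowest, median and highest F1 control pool, 2.15, 3.69 and 4.44 in F1 ifosfamide and 5.53, 7.40 and 8.54 in F2 ifosfamide. The F1 ifosfamide pools were thus all below the pools of both other groups (log2 fold change against F1 control -0.96, SE 0.144, edgeR adjusted p = 0.00023). This window also stood alone, with 3125 counts over the 18 pools and 46 and 36 in its neighbours. Another window with no overlap, chr12:17079001-17080000, held 2.74, 3.8 and 4.92 CPM in F1 control and 2.06, 2.42 and 2.72 in F1 ifosfamide (log2 fold change -0.695, SE 0.134, edgeR adjusted p = 0.00897). The F2 pools had 3.54, 4.30 and 5.19 CPM, again above F1 ifosfamide. The strongest window on the list, chr12:50992001-50993000, fell from 9.02 ± 1.93 to 6.02 ± 1.06 CPM (SD, n = 6), with overlapping pools (log2 fold change -0.58, edgeR adjusted p = 0.0393). It was isolated as well, with 4654 counts against 95 and 190 beside it.

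The other 6 lower windows started at 12229001, 51059001, 31780001, 394001, 36933001 and 11751001, with log2 fold changes of -1.11, -0.66, -0.77, -1.10, -0.84 and -1.06 and overlapping pools in each. The window most increased was chr12:22713001-22714000, at 0.192, 0.341 and 0.771 CPM in F1 control and 0.521, 1.08 and 1.24 in F1 ifosfamide (log2 fold change 1.35, SE 0.23, edgeR adjusted p = 0.00153). The other, chr12:8210001-8211000, had 0.385, 0.836 and 1.02 CPM in F1 control and 1.03, 1.31 and 1.96 in F1 ifosfamide pools, with no overlap (log2 fold change 0.83, edgeR adjusted p = 0.0446). The count of 11 rested on single pools: it was 41 without F1 control pool 1, 6 without pool 2, 5 without pool 3, 3 without pool 4 and 2 without pool 6, and 44, 2 and 4 without F1 ifosfamide pools 1, 3 and 6. The window at 49407001 was called under all 19 alternatives. The window at 22713001 was called under the 17 that gave it an adjusted p, and DESeq2 and a minimum count of 30 gave it none. DESeq2 called 5 of the 11 and gave the other 6 no adjusted p.

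Between F2 ifosfamide and F1 control, 10 of 25188 tested windows passed, 0.0397% against 0.027% of all windows tested. Of these, 7 were higher in F2 ifosfamide (0.016% of all windows) and 3 lower (0.011%), where the rate of the other autosomes at matched signal would have given 7.36 calls. The median log2 fold change was -0.015 on chromosome 12 and -0.0012 on the other autosomes. The pools of the groups did not overlap in 5 of the 10, as in 0.473% of all windows tested. The only called neighbours were chr12:37715001-37716000 and chr12:37716001-37717000. The first held 0.961, 1.37 and 1.47 CPM in F1 control and 1.56, 2.37 and 2.99 in F2 ifosfamide pools, with no overlap (log2 fold change 0.78, SE 0.141, edgeR adjusted p = 0.00388). The second held 0.783, 1.03 and 1.33 CPM in F1 control and 1.22, 1.86 and 2.37 in F2 ifosfamide (log2 fold change 0.79, SE 0.154, edgeR adjusted p = 0.0143). F1 ifosfamide pools ran from 0.799 to 1.49 CPM in the first and from 0.579 to 1.09 CPM in the second.

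The weakest window called was chr12:44003001-44004000, whose pools held 0.150, 0.195 and 0.308 CPM in F1 control and 0.356, 0.584 and 0.646 in F2 ifosfamide (log2 fold change 1.32, SE 0.27, edgeR adjusted p = 0.0235). Windows starting at 28608001, 14005001 and 45806001 were higher by 0.67, 0.73 and 0.60 on the log2 scale. The window at 22713001 passed again (log2 fold change 1.03, SE 0.228, edgeR adjusted p = 0.0499). Both comparisons use the same F1 control pools, which were low at this window. The 3 lower windows started at 14138001, 50461001 and 46102001, with log2 fold changes of -1.13, -0.685 and -0.95. In the first of them the pools fell from 0.509, 0.717 and 0.962 CPM in F1 control to 0.174, 0.267 and 0.682 in F2 ifosfamide. The count of 10 became 5, 2, 5, 23, 2 and 27 without F1 control pools 1, 2, 3, 4, 5 and 6, and 55, 1, 1, 1 and 3 without F2 pools 1, 3, 4, 5 and 6. None of the 10 was called under every alternative that gave it an adjusted p, and the 1 window called without F2 pool 5 was not among them. The window at 37715001 was called under 18 of 19, all except that one.

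Many more windows differed between F2 and F1 ifosfamide sperm. Of 28000 windows tested, 702 passed, 2.51% against 2.01% of all windows tested. By direction, 442 were higher in F2 (1.18% of all windows) and 260 lower (0.836%). The rate of the other autosomes at matched signal would have given 366.1 higher and 260.1 lower calls. In the highest stratum 7.93% of chromosome 12 windows and 5.86% of the other autosomes' windows were called. In stratum 19 the shares were 2.98% and 3.06%. The median log2 fold change was -0.022 on chromosome 12 and -0.0055 on the other autosomes, and it was below 0 although most calls were higher. Within strata, the median of chromosome 12 minus that of the other autosomes was negative in strata 11 to 19 (-0.0191 in stratum 19). It was 0.0172 in stratum 20. For F2 ifosfamide against F1 control this difference was negative in strata 12 to 19 and 0.0127 in stratum 20. These differences were not tested. Among the 702, 186 had no overlap between the groups (1.31% of all windows tested), 467 were high windows, 117 had a called neighbour and 12 were isolated. How often tested windows at large were high, isolated or beside a call was not counted. The counts of such windows among the 702 are therefore a description only. Every one of the 53 bins held a call, from 3 to 32 with a median of 12. The largest share was in bin 52, with 32 of 629 tested windows (5.09%).

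The 10 higher windows with the smallest p rose by 0.75 to 1.21 on the log2 scale (edgeR adjusted p from 3.05e-08 to 6.4e-05), and 7 of them had no overlap. Choosing by smallest p favours such windows. Pools did not overlap in 26.5% of the 702 and in 1.31% of all windows tested. The leading window was chr12:49407001-49408000 with a log2 fold change of 1.06 (SE 0.127). The adjacent windows at 37716001 and 37715001 came next, with 1.21 and 1.08, followed by 17079001, 50992001 and 17766001, with 0.85, 0.825 and 0.895. The window at 17766001 was isolated, with 1328 counts against 108 and 104 beside it. Its pools held 1.28, 1.66 and 2.14 CPM in F1 ifosfamide, 1.57, 2.51 and 3.04 in F1 control and 2.52, 3.23 and 3.70 in F2 ifosfamide. The remaining 4 started at 47718001, 24717001, 11434001 and 15821001, and each also had a lower mean in F1 ifosfamide than in F1 control. Picking windows that are low in these F1 ifosfamide pools relative to F2 favours this. None of the 4 passed between F1 ifosfamide and F1 control (edgeR adjusted p from 0.4 to 0.681).

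The 10 lower windows with the smallest p had log2 fold changes of -1.39 to -0.69 (edgeR adjusted p from 0.000491 to 0.00224), with no overlap in 7, which choosing by p favours. The most changed were neighbours. The window chr12:10610001-10611000 held 0.445, 0.582 and 1.16 CPM in F1 ifosfamide and 0.144, 0.213 and 0.349 in F2 ifosfamide pools (log2 fold change -1.39, SE 0.257). The window chr12:10611001-10612000 held 0.529, 0.664 and 0.999 CPM and 0.179, 0.283 and 0.417 (log2 fold change -1.26, SE 0.235). A stronger one, chr12:3139001-3140000, fell from 2.99 ± 0.451 to 1.83 ± 0.400 CPM (log2 fold change -0.69), where F1 control had 2.07 ± 0.496. The others started at 9154001, 14192001, 8406001, 6439001, 34293001, 13661001 and 45945001. The count of 702 became 1234, 305, 408 and 424 without F1 ifosfamide pools 1, 3, 4 and 6, and 297, 321, 460 and 445 without F2 pools 3, 4, 5 and 6. All 20 of these windows were called under every alternative that gave them an adjusted p, 17 to 19 for each. They were picked for the smallest p, so this does not carry over to the rest of the 702. Without F2 pool 3, for example, 293 of the 702 were still called.

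The comparisons share pools, so their calls are not independent. Of the 11 windows called between F1 ifosfamide and F1 control, 9 were also called between F2 and F1 ifosfamide (81.8% of the 11 and 1.28% of the 702), and these are the 9 that were lower in F1 ifosfamide. Both comparisons contain the same 6 F1 ifosfamide pools. Of the 10 windows called between F2 ifosfamide and F1 control, 5 were among the 702, and only the window at 22713001 was among the 11. In the authors' deposited table for F1, 5 chromosome 12 windows had an adjusted p below 0.05, and all 5 were among the 11 called here. In the authors' deposited table for F2 ifosfamide against F1 control there were 8, of which 4 were among the 10.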

How the data were processed

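MeDIP-seq libraries of pooled rat sperm were used as 2 deposited tables of 2782040 windows of 1 kb, holding 18 of the 34 labelled libraries. The 6 F1 control columns are identical in both tables. Per the file headers, the authors' values are read counts per window, RPKM for each library, means of 6 libraries, and log2 fold changes, log2 CPM, p-values and adjusted p-values from edgeR. The deposited log2 fold changes have control over ifosfamide, the opposite of the direction used here. FastQC, Trimmomatic, Bowtie2, SAMtools, edgeR and the Rnor_6.0 build are named in the submitters' processing notes; the notes give no settings for them. The deposited counts were used for every value here, and the RPKM values and deposited means were not used.

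Each comparison was fitted over the windows of all chromosomes with edgeR 4.0.16: filterByExpr with a minimum count of 10, library totals over all windows, TMM factors, a trended dispersion and the quasi-likelihood test, two-sided, with Benjamini-Hochberg adjustment over all windows tested and a threshold of 0.05. SE is the absolute log2 fold change divided by the square root of F. Bins of 1 Mb were summed and fitted in the same way. CPM divides a count by the library total times its TMM factor and multiplies by 1000000. Measures of the whole chromosome have 1 value per library and were compared by exact permutation of pools, adjusted over 12 tests; intervals contain the shifts that this test does not reject. A window was called isolated when it held at least 10 times the counts of each neighbour.

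On simulated counts with the dispersion of the real fits and 200 changed windows among the tested windows of chromosome 12, the fit of F1 ifosfamide against F1 control over 1043656 windows found 10.4% of the windows changed 1.5-fold; the share was 52.2% at 2-fold and 84.8% at 3-fold. The bin fit of F2 against F1 ifosfamide recovered 99% of 1.1-fold changes over 2794 bins, with 12 false calls. The simulated bins had the trended dispersion only, without further spread of a bin or a shift shared by the bins of a pool. In the real fit the SE of bin 36 of chromosome 12 was 0.063. The 99% therefore sets no limit on the shift of bins that were not called.

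The named windows were the 5 highest in control and up to 10 higher and 10 lower called windows by p in each comparison; the named bins were the 5 highest, the 5 lowest and those called; the named chromosomes were the 2 nearest in control level and chromosome 2. The chromosome, the measures and these rules were chosen with earlier results of these data known. Equal pool numbers were not treated as pairs, since no pair correlated above 0.1. Alternatives were other size factors, DESeq2 1.42.0, other filters, an offset for each stratum, all 3 groups in 1 fit, a replicate block, other strata, limits and reference chromosomes, thinning, and leaving out each pool.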

Additional observations from a re-analysis of the deposited data

Results flagged for a closer look

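In F1 ifosfamide pool 5, 3 measures of chromosome 12 lay far from the other 5 pools of the group: mean signal relative to the other autosomes, 0.484 on the log2 scale; signal at matched level, 0.0793 on the log2 scale; and the share of high windows relative to the other autosomes, 1.84. The gap to the nearest pool was 0.806, 0.828 and 0.776 of the group's range. These 3 measures rest on the same counts and are not independent of each other.

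Among single windows, 4 of 120 sets of 6 pools had a pool as far out. They were 2.6 CPM in F2 ifosfamide pool 1 at chr12:3139001-3140000, 0.821 CPM in F1 control pool 3 at chr12:10610001-10611000, 0.978 CPM in F2 ifosfamide pool 6 at chr12:34293001-34294000 and 2.72 CPM in F1 ifosfamide pool 5 at chr12:50461001-50462000. Chance puts about 1 in 20 sets past this limit, and 7 of the 132 sets examined were past it.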

How the results depend on the processing

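Counts of called chromosome 12 windows depended on the fit. Between F1 ifosfamide and F1 control the 11 became 3 at a minimum count of 30, 5 with DESeq2 and 5 with the pool number as a replicate block, and 2 to 44 when a pool was left out. Between F2 ifosfamide and F1 control the 10 became 4, 2 and 24 under the same settings and 1 with all 3 groups in 1 fit, and 1 to 55 when a pool was left out. Between F2 and F1 ifosfamide the 702 became 328 with DESeq2 and 454 with the replicate block, and 297 to 1234 when a pool was left out. DESeq2 gave no adjusted p to 6 of the 11, 7 of the 10 and 172 of the 702, which are not lost calls. It called 327 of the 702, and the others to which it gave an adjusted p did not pass. The 2 bins called there became 1 with DESeq2 size factors, 0 with the replicate block, with all 3 groups in 1 fit or without the highest 0.1% of windows, and 0 to 7 when a pool was left out; the cause was not tested. Pools of equal number correlated at -0.133 to 0.065; 6 of 12 pools correlated best with their own number between F2 ifosfamide and F1 control and 0 of 12 in the other comparisons, a hint from the data and not from the labels.

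No measure of the whole chromosome passed its test under any setting tried. Differences close to 0 changed sign as follows, F1 ifosfamide against F1 control, F2 ifosfamide against F1 control and F2 against F1 ifosfamide in turn. Against chromosomes 19 and 20, mean signal differed by -0.0146, 0.00481 and 0.0194, and signal at matched level by 0.00384 and 0.0198 in the last 2 comparisons. With strata by control alone the first 2 comparisons gave 0.00487 and 5.79e-05. With the highest 1% of windows the high shares differed by -0.0621, 0.07 and 0.132, and with windows of at most 1 count F2 ifosfamide against F1 control gave 0.00338 for the empty share. Ranges after leaving out a pool are given whether or not they crossed 0. For mean signal they were -0.0164 to 0.00932, -0.00952 to 0.00563 and -0.0102 to 0.0134. At matched level they were -0.0184 to 0.00803, -0.0123 to 0.00286 and -0.0114 to 0.0124. For high windows they were -0.0255 to 0.034, -0.0417 to -0.00349 and -0.0506 to 0.00204. That of F2 ifosfamide against F1 control stayed below 0. For empty windows they were 0.0389 to 0.0535, -0.0102 to 0.00753 and -0.0558 to -0.0387. Only that of F2 ifosfamide against F1 control crossed 0. Of the named windows none changed direction. In the simulation, most 1.5-fold changes of single tested windows were missed.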
